A study of Mus musculus with 5 samples.

Results

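REX1-only distal sites are the peaks of the REX1 list that were defined by having no peak of either RNF12 list on them and a summit away from promoters. They number 39116, of 95744 REX1 peaks on chromosomes 1 to 19 and X (40.9%, interval 40.5% to 41.2%) and of 291776 peaks in the 3 lists of the study. A REX1 peak was selected by the rule where it shared no base with a peak of RNF12 WT or of RNF12 H569A,C572A, and where its summit lay more than 1 kb from every transcription start site (TSS) of the GENCODE annotation. The absence of RNF12 and the distance from promoters are therefore the rule and not results. So chosen, the sites are 63.8% of the 61315 distal REX1 peaks. By the same overlap rule, 9123 of 34429 REX1 peaks within 1 kb of a TSS are REX1-only promoter sites, which serve for comparison together with 10040 distal sites present in all 3 lists.

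The lists come from chromatin immunoprecipitation and sequencing (ChIP-seq) in female mouse embryonic stem cells (mESCs) of a 129/Sv-Cast/Ei background, with 1 library for each protein. The REX1 library is labelled as FLAG-V5-REX1 in WT mESCs, precipitated with a V5 antibody, whereas the study takes its REX1 occupancy from previous work. The RNF12 libraries are from Rlim+/- mESCs that stably expressed FLAG-V5-RNF12, either WT or with the H569A,C572A substitutions that inactivate its catalytic RING domain, from a constitutive pCAG vector under puromycin selection. These cells were treated with 15 μM MG132, a proteasome inhibitor, for 3 h and cross-linked with 2 mM disuccinimidyl glutarate and 1% formaldehyde, and the tagged proteins were precipitated through V5. The REX1 and RNF12 lists therefore differ in genotype, as the labels give it, as well as in the protein precipitated, and these cannot be told apart. Treatment and cross-linking of the REX1 cells are not given in the sources used here. The control libraries, from WT mESCs, were not analysed here, and peak lists hold no expression with which the labelled cell type could be checked against its markers.

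REX1, encoded by Zfp42, is a zinc finger protein of the YY1 family and a marker of naive pluripotency. RNF12, encoded by the X-linked gene Rlim, is a ubiquitin ligase that marks REX1 for degradation, and the pair is known for its part in X chromosome inactivation, where REX1 restrains Xist and acts at Tsix. YY1 and REX1 recognise related sequences around a shared ATGGC core. Sites with REX1 and no RNF12 are the part of the REX1 profile where the ligase was not detected under these conditions.

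The sites of highest fold enrichment are shown first, since their sequences carry the string that recurs throughout. Fold enrichment is the authors' ratio of signal at the summit to the control. Each line gives the summit base with 50 bases to either side (GRCm38, the build named mm10, plus strand, 5′ to 3′). Capitals mark the REX1 motif, ATGGCNNC with G or T at the first N and A, C or G at the second, which appears as its reverse complement where it lies on the minus strand.
Prkch, chr12:73719986-73720086: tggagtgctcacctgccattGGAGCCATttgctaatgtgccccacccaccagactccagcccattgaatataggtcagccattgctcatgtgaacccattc
Jdp2, chr12:85621129-85621229: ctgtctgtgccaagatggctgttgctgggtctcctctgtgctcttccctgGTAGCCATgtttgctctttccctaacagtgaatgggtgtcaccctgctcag
Optn, chr2:5028219-5028319: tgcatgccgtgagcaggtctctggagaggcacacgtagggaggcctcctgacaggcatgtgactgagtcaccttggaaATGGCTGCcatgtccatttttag
Nsun3, chr16:62758345-62758445: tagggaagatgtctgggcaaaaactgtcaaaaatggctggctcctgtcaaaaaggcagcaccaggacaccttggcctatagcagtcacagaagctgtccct
Slc2a3, chr6:122766629-122766729: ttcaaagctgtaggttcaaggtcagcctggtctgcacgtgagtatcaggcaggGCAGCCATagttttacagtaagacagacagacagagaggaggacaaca
Gpr39, chr1:125701904-125702004: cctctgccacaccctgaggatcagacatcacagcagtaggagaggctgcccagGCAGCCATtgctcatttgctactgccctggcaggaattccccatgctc
Ank3, chr10:69571675-69571775: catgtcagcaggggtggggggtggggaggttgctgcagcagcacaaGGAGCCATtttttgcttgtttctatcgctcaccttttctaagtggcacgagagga
Intergenic on X, chrX:42343595-42343695: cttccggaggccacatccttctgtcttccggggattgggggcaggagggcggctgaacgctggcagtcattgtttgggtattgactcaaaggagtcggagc
Arrdc1, chr2:24929210-24929310: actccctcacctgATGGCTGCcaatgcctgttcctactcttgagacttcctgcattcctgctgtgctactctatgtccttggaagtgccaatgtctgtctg
The Prkch site (chr12:73719737-73720154, fold enrichment 32.4) lies in an intron 71115 bp from the nearest TSS of a protein kinase C gene, with ATGGCTCC on the minus strand. The Jdp2 site (chr12:85621074-85621416, 31.1) holds ATGGCTAC 3.5 bp from its summit, in an intron of a gene for an AP-1 family repressor. The Optn site (chr2:5028115-5028407, 30.4) is intronic in a gene for an autophagy receptor. In Slc2a3, the gene of the glucose transporter GLUT3, an intronic site (chr6:122766571-122766803, 29.5) holds ATGGCTGC 6.5 bp from the summit. The Gpr39 site (chr1:125701827-125702100, 29.1) holds the same string at the same distance. In Ank3, which encodes the scaffold protein ankyrin-G, the intronic site (chr10:69571585-69571816, 28.9) has ATGGCTCC centred 0.5 bp from the summit. The Arrdc1 site (chr2:24929100-24929388, 27.1) lies 1129 bp from the nearest TSS, close to the limit of the rule.

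Of the 12 sites of highest fold enrichment, 10 hold the motif, and the exceptions are in Nsun3 (chr16:62758284-62758739, 29.9), which encodes a mitochondrial RNA methyltransferase, and in an intergenic stretch of the X chromosome (chrX:42343533-42343741, 28.2). The Nsun3 window holds ATGGCTGG, which has the first 6 bases of the motif and not its last, and the window on the X chromosome holds neither. The remaining members of this group are the site of highest fold enrichment of all, on chromosome 18 (chr18:35664656-35665090, 41.0, 2728 bp from a Spata24 TSS), an intergenic site on chromosome 2 (chr2:131805409-131805645, 26.3) and an intronic site in Gm31458 (chr15:28061054-28061280, 26.1). The nearest RNF12 peak to these 12 sites is between 370 and 20639 bp away. At each of the 12, the 32 bases at the summit occur once in chromosomes 1 to 19 and X.

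Most sites are far weaker. The fold enrichment of the 39116 sites runs from 1.56 to 41.0 with a median of 4.47, and 90% of them are at or below 6.68. The median −log10 q is 4.74 and the median width 138 bp. In distal sites of all 3 lists the medians are 4.59, 6.78 and 227 bp, so the sites without RNF12 are narrower and of lower −log10 q at a close fold enrichment. These are descriptions, since peak strength bears on whether an overlap is found. Just inside the overlap limit, 334 sites with an RNF12 peak at a gap under 20 bp have a median fold enrichment of 4.14. Just outside it, 461 distal peaks that overlap by at most 20 bp have 4.02. At the distance limit, 502 sites with summits at most 100 bp beyond 1 kb from a TSS have a median of 4.29, and 551 REX1-only peaks within the last 100 bp before it have 4.31.

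Introns hold 47.8% (47.3% to 48.3%) of the sites, intergenic sequence 42.1%, coding exons 5.11% and other exons 4.99%. In distal sites of all 3 lists, 29.7% are in introns, 49.8% are intergenic and 16.9% are in coding exons. The median site is 9333 bp from its nearest TSS. Sites 1 to 3 kb from a TSS make up 18.7% and those more than 100 kb away 2.22%, against 20.9% and 6.32% of distal sites in all 3 lists. A gap under 100 bp to an RNF12 peak is found at 4.26% of the sites, a gap from 100 bp to below 1 kb at 21.9%, of 1 to 10 kb at 51.6% and of more than 10 kb at 22.2%.

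To see how much of the occupancy carried the sequence of REX1, both strands of each window were read for the motif, with windows of equal length centred 300 bp to either side of the summit as flanks. The string was found at 4238 sites (10.8%, 10.5% to 11.1%) and in 1.68% of flank windows, a ratio of 6.44. Over all 95744 REX1 peaks it occurred at 12.8%. In REX1-only promoter sites the share was 7.99% against 1.92% in flanks, which is lower than in the distal sites by 2.84 points (difference interval 2.19 to 3.47). In distal sites of all 3 lists it was 25.8% against 4.92% in flanks. The intervals are 95% Wilson intervals for shares and 95% Newcombe intervals for differences. They cover counting error only, and no test between conditions is possible with 1 library per list.

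The motif share was higher in stronger sites. With the sites in 10 bins of equal size by fold enrichment, it was 5.32% (4.66% to 6.06%) in the lowest bin, 7.13% in the fifth and 27.2% (25.8% to 28.6%) in the highest, while the flanks stayed between 1.44% and 1.87%. Of the 1000 sites of highest fold enrichment, 36.6% held the motif, and of the 100 highest 53 did. Seen from the other side, sites with the motif have a median fold enrichment of 5.18 and sites without it 4.37. Fold enrichment was not part of the rule, and all sites come from the same library. The plot of motif shares by bins of fold enrichment shows that most of the increase falls in the upper bins.

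**Figure D1:**
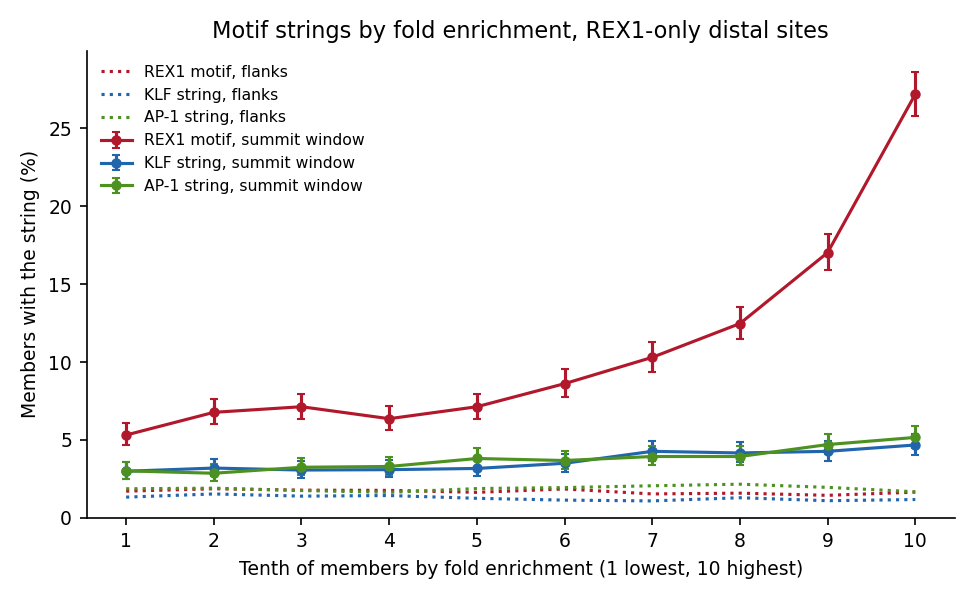
Share of REX1-only distal sites (%, vertical axis) with a string within 50 bp of the summit (points, with 95% Wilson intervals) and in flanks 250 to 350 bp away (dotted lines), by bin of fold enrichment from lowest to highest (horizontal axis). The REX1 motif goes from 5.32% in the lowest to 27.2% in the highest bin, whereas the KLF string reaches 4.68% and the AP-1 string 5.16% there.

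The strings lie close to the summit. Of 4397 instances, 32.1% are centred within 10 bp of the summit and 57.5% within 20 bp, and 49.9% are on the plus strand. A single instance is the usual arrangement, with 1 in 4101 sites, 2 in 124 and 3 or more in 13 sites.

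**Figure D2:**
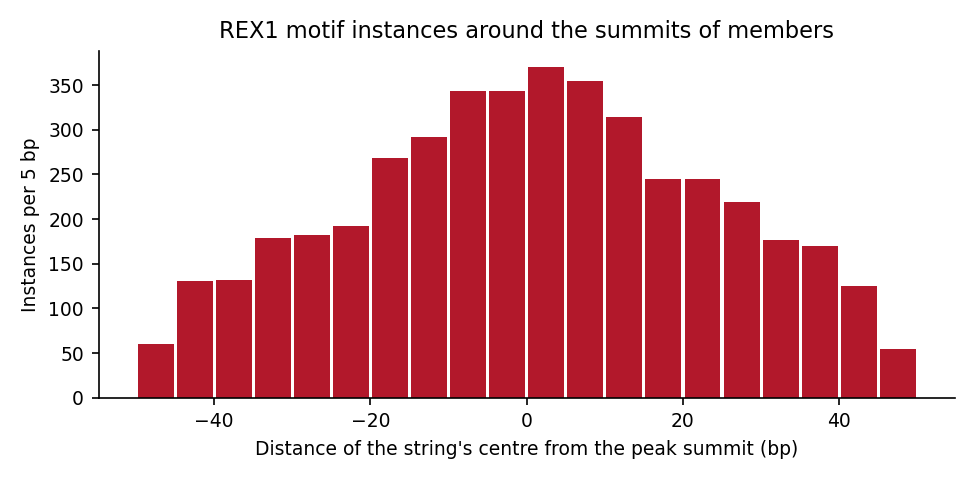
Number of REX1 motif instances (vertical axis) by distance of the string's centre from the summit in bins of 5 bp (horizontal axis), over 4397 instances in REX1-only distal sites. Counts are highest at the summit and fall to both sides, and the outermost bins are low in part because a string must lie wholly within the window.

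The form of the string differed between kinds of sites. In REX1-only distal sites ATGGCTGC made up 55.5% of instances (2440), ATGGCTCC 21.2% and ATGGCTAC 9.32%, so that 86.0% (84.9% to 87.0%) have T at position 6, counted from 1 at the 5′ end. The forms with G at position 6, which hold a CpG, made up the remaining 14.03%. In flank windows of the same sites, matches have T there in 81.9% of 1339 instances, and ATGGCTGC makes up 34.6% of them. In REX1-only promoter sites the share with T is 79.3%, which is 6.63 points lower (3.70 to 9.81). In distal sites of all 3 lists whose 32 summit bases occur once in the genome, T is at 57.9% of 546 instances, against 86.8% of 4068 instances in the single-copy REX1-only distal sites, a difference of 29.0 points (24.8 to 33.3). Distal sites of all 3 lists whose summit bases recur hold ATGGCGAC in 81.2% of 2077 instances, and T at position 6 in 1.97%. Base composition moves with these groups: the median window is 54.5% G and C in the REX1-only distal sites, 56.4% in the promoter sites and 64.4% in the distal sites of all 3 lists, and its part in the difference was not tested here.
Around the string, the base that follows it is C in 52.4% and G in 3.27% of instances at summits, against 28.3% and 7.32% in flanks. The base before it is T in 11.1% at summits and 14.6% in flanks, and A stands 3 bases before it in 38.9% and 30.1%.

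Read without a given string, the sites returned the same word. Among all 8-base words and their reverse complements, those with the largest excess of summits over flanks were ATGGCTGC (6.12% against 0.584%), GGCAGCCA (5.11% against 0.801%), AATGGCTG (4.69%), CAGCCATG (4.20%), CCACACCC (3.75% against 1.29%), AAATGGCT (2.85%), GGCTGCCA (2.77%), CAGCCATC (2.74%), AGCAGCCA (3.16%) and GGAAGCCA (3.01%). Each of them holds GGCT on one strand or the other, except CCACACCC, which belongs to the sequences bound by KLF factors. In the 19965 sites with neither the motif nor a soft-masked base in the window, the leading words were AATGGCTG (2.91% against 0.634%), ATGGCTTC (2.85% against 0.609%), GGAAGCCA, ATGGCTGG (2.74% against 0.584%) and ACAGCCAT (2.74% against 0.689%), all of which hold TGGCT on one strand.
The first 6 bases, ATGGCT, were therefore counted alone, a choice made after these words were seen. They occurred at 22.1% (21.7% to 22.6%) of the sites and in 7.33% of flanks. Of the 12 sites of highest fold enrichment 11 held ATGGCT, of the 100 highest 81 did, and in the highest and lowest bins the shares were 48.5% and 13.3%, with flanks at 7.14% and 7.08%. In single-copy sites the share was 23.1%, against 13.6% in single-copy distal sites of all 3 lists, a difference of 9.48 points (8.44 to 10.5). Their flanks held it in 7.41% and 5.35%. The string was drawn from words of the REX1-only distal sites, 1 side of this comparison. That choice can favour this side, and the interval does not allow for it. Restricted to windows of 50 to 60% G and C, the shares were 22.7% and 19.6%, a difference of 3.10 points (0.88 to 5.17). Flanks of these peaks held it in 7.36% and 5.38%, so the shares differed in the same direction away from the summit. The restricted windows still differed in median G and C, at 54.5% and 57.4%. The part of flanks and composition in the difference was not tested.

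The higher share of the full motif in distal sites of all 3 lists turned around once repeated sequence was left out. There, the 32 bases at the summit occur 2 or more times in the genome at 47.1% of peaks and more than 100 times at 29.3%. In the REX1-only distal sites these shares are 9.69% and 2.06%. Among peaks with a single-copy summit, a split chosen after seeing the data, the motif is at 11.1% (10.8% to 11.5%) of the REX1-only distal sites and at 9.90% (9.13% to 10.7%) of the distal sites in all 3 lists, a difference of 1.24 points (0.35 to 2.09) in the other direction. With no soft-masked base in the window, an alternative listed earlier, the shares are 11.2% and 8.77%. Among single-copy peaks with 50 to 60% G and C they are 10.8% and 11.2%, and the interval of the difference includes 0 (−2.18 to 1.22). In summits with more than 100 copies the motif is at 2.11% of the REX1-only distal sites and at 53.8% of the distal sites in all 3 lists. The plot of motif shares by copy number shows the 2 kinds of distal site close together in single-copy sequence and far apart in repeated sequence.

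**Figure D3:**
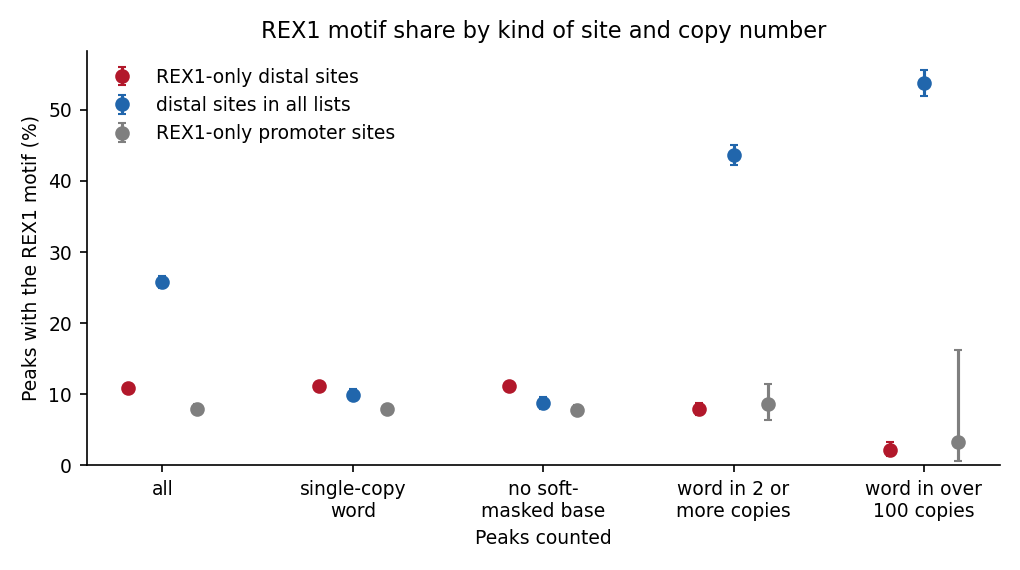
Share of peaks whose window holds the REX1 motif (%, vertical axis, points with 95% Wilson intervals) in 3 kinds of REX1 peak, for all peaks and for subsets by copy number of the summit's 32 bases or by soft-masking (horizontal axis). REX1-only distal sites stand at 11.1% in single-copy sequence and 2.11% above 100 copies, and distal sites in all lists at 9.90% and 53.8%.

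Other strings were counted in the same windows, 23 in all with the REX1 motif. Comparisons with distal sites of all 3 lists are given for single-copy summits, and then for those with windows in a band of 50 to 60% G and C, since composition differs between these kinds of site. The band narrows that gap and does not close it, with a median of 54.5% in the REX1-only distal sites and 57.4% in the distal sites of all 3 lists. The AP-1 string TGANTCA, with C or G at N, is at 3.77% of the sites and 1.88% of flanks, and over all REX1 peaks at 2.44%. In single-copy summits it is at 3.92%, against 1.90% in the distal sites of all 3 lists, a difference of 2.02 points (1.57 to 2.41), and it remained higher within the band, by 1.35 points (0.35 to 2.10). AP-1 is a dimer of JUN and FOS proteins that is common at enhancers. TCAAGGTCA, bound by the orphan nuclear receptor ESRRB, is at 0.798% of the sites and 0.380% of flanks, and at 0.547% of all REX1 peaks. Its single-copy shares are 0.838% and 0.282%, which differ by 0.56 points (0.35 to 0.71), and within the sites it goes from 0.588% in the lowest bin of fold enrichment to 1.46% in the highest. The TEAD string NCATTCCN, with A or G first and A or T last, is at 2.63% of the sites and 1.75% of flanks, with single-copy shares of 2.67% and 1.68%. Within the band the intervals for both included 0, with difference intervals of −0.52 to 0.43 points for TCAAGGTCA and −1.08 to 0.71 points for the TEAD string.
Several GC-rich strings were less frequent in the REX1-only distal sites among single-copy summits. TGCCGC, the core bound by ZFP57 at imprinted loci, is at 3.11% of the sites against 1.37% of flanks, and its single-copy shares are 3.14% and 10.4%, a difference of −7.29 points (−8.16 to −6.47). GCAGCAGC is at 2.18% of the sites, and its single-copy shares are 2.25% and 5.42%. Over all peaks the differences are −3.72 points (−4.26 to −3.21) for TGCCGC and −20.5 points (−21.3 to −19.6) for GCAGCAGC. The E-box CACGTG is at 2.51% and 1.51% of flanks, with single-copy shares of 2.63% and 3.95%. The KLF string GGGNGNGGC, with C or T at the first N and G or T at the second, is at 3.64% of the sites and 1.27% of flanks, and at 3.6% of all REX1 peaks, and its single-copy shares are 3.77% and 4.80%, a difference of −1.03 points (−1.67 to −0.45). Over all peaks, repeated sequence included, the KLF string is instead more frequent in the REX1-only distal sites, by 0.51 points (0.11 to 0.89), and the interval for the E-box includes 0 (−0.44 to 0.26). Within the band TGCCGC, GCAGCAGC and the E-box remained lower in the REX1-only distal sites, by differences of −4.01, −1.16 and −0.99 points (−5.48 to −2.78, −2.26 to −0.31 and −2.12 to −0.10), whereas the interval for the KLF string included 0 (−0.52 to 1.39). Flanks differed as well. In single-copy peaks GCAGCAGC is at 0.936% of flanks of the REX1-only distal sites and 2.14% for distal sites of all 3 lists. For the KLF string these are 1.34% and 2.17%. Ratios of summit to flank are 2.41 and 2.54 for GCAGCAGC, and 2.82 and 2.22 for the KLF string. Over all peaks, flanks hold TGCCGC in 1.37% and 2.61%, with ratios of 2.27 and 2.61. A lower share is therefore not by itself a lower excess over flanks. The NRF1 string is at 16 sites (0.041%) and 0.009% of flanks.
The YY1 core AAGATGGC is at 2.59% of the sites and 0.708% of flanks. In 34.7% of the 1012 sites that hold it, it runs on into the REX1 motif. The CTCF string is at 0.614% of the sites and 0.125% of flanks, a ratio of 4.90, and at 0.425% of all REX1 peaks. Over all peaks the distal sites of all 3 lists have 19.9% for the YY1 core, a difference of −17.3 points (−18.1 to −16.5), and 0.349% for CTCF, a difference of 0.26 points (0.11 to 0.39). In single-copy summits neither differed beyond counting error from distal sites of all 3 lists, at 2.33% and 2.58% for the YY1 core and 0.674% and 0.621% for CTCF, with difference intervals of −0.74 to 0.17 and −0.21 to 0.25 points. In windows with no soft-masked base the YY1 core is at 1.97% and 0.943%, a difference of 1.03 points (0.65 to 1.34), so its direction depended on how repeated sequence was left out. The C/EBP string TTGCGCAA is at 17 sites. The SOX string CNTTGTT, with A or T at N, is at 3.64% of the sites and 4.16% of flanks, so it is not more frequent at summits. Its single-copy shares are 3.77% and 1.66%, a difference of 2.11 points (1.68 to 2.48), and within the band the interval includes 0 (−0.33 to 1.48). The NF-Y string is at 1.09% and 1.13%, and the NF1 half-site NTGCCAAG, with C or T at N, at 1.35% and 0.977%. Over the 23 strings, the interval of the single-copy difference lies above 0 for 8, the REX1 motif among them, and below 0 for 5. Within the band it lies above 0 for 1, the AP-1 string, and below 0 for 4, which are TGCCGC, GCAGCAGC, the E-box and the NRF1 string. These intervals are not adjusted for their number.

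The windows also differ in plain composition. The sites have a median of 54.5% G and C at the summit and 48.0% in the flanks, and 20.2% of them have no CpG within 50 bp of the summit. Of distal sites in all 3 lists 2.82% have none, and of REX1-only promoter sites 10.99%. Soft-masked sequence, lower case in the reference, covers the summit base at 19.8% (19.4% to 20.2%) of the sites and 25.4% of bases 300 bp to either side. In distal sites of all 3 lists the summit share is 47.5%.

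Some of the sites share sequence with each other. Groups of sites with a common 16-base word within 50 bp of the summit were formed after seeing the data, and the 5 largest are described. The 5 largest groups that share the same 32 bases at the summit have 5 to 8 sites each, and all are part of group 1. The windows of the site of highest fold enrichment in 4 of the groups are shown, with the group's word in capitals.
Group 1, chr1:109614816-109614916: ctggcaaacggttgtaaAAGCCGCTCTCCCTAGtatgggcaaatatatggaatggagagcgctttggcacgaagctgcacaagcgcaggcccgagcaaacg
Group 2, chr6:123868712-123868812: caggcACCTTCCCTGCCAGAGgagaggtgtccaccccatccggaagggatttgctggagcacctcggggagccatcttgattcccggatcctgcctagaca
Group 4, chr16:80072657-80072757: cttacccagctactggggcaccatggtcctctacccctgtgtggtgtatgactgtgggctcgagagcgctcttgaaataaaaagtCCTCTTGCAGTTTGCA
Group 5, chr16:36097900-36098000: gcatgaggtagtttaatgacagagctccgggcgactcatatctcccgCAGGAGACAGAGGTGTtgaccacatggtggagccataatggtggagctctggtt
The word of group 1 is in the windows of 259 sites on all 20 chromosomes, each with a soft-masked summit. Their 32 summit bases occur a median of 477 times in the genome, their fold enrichment is low (median 3.79, highest 6.53) and none holds the REX1 motif. The word has 1420 copies in the genome, of which the sites cover 18.2%. It is at 331 summits of the whole REX1 list, at none of 97272 RNF12 WT summits and at 204 of 96846 RNF12 H569A,C572A summits. A peak list holds only signal past the caller's threshold, so a count of 0 limits peaks and not binding.
Group 5 held the motif most often of the 5: of 103 sites with its word 79 hold the REX1 motif, which in the line above stands as GGAGCCAT in lower case, and the sites cover 34.1% of the 302 copies in the genome. Its word is at 149 REX1 summits, at no RNF12 WT summit and at 26 RNF12 H569A,C572A summits. Group 2 has 123 sites, with the REX1 motif in 42 and the YY1 core in 49, and fold enrichments up to 23.0 (chr6:123868654-123868906, 15299 bp from a Vmn2r25 TSS). Its word is at 144 REX1 summits, at 55 summits of RNF12 WT and at 64 of the mutant. Group 4 has 107 sites, 7 with the motif, and its word is at 114 REX1 summits, at 0 of RNF12 WT and at 9 of the mutant. The word of group 3, AGTGCTGGGATTAAAG, belongs to the B1 family of short interspersed elements and has 98093 copies. It is at 110 of the sites and 164 REX1 summits, but at 430 RNF12 WT and 6846 RNF12 H569A,C572A summits. The reads of the RNF12 libraries were 36 bases long. The part of read length and of mapping to repeats in these counts was not tested.

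**Figure D4:**
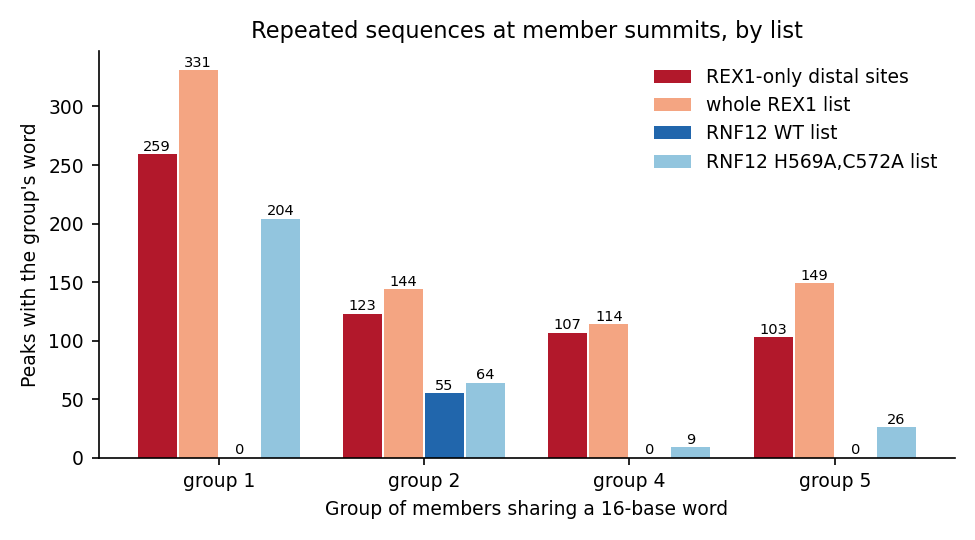
Number of peaks with the group's 16-base word within 50 bp of the summit (vertical axis) in the REX1-only distal sites and in each whole list, for groups 1, 2, 4 and 5 (horizontal axis). Words of groups 1, 4 and 5 are at no RNF12 WT summit, and the word of group 1 is at 204 RNF12 H569A,C572A summits.

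A small set of sites holds the motif in tandem. Windows of 2 such sites are shown with each motif in capitals, chosen after the counts were seen.
Chromosome 14, chr14:25037658-25037758: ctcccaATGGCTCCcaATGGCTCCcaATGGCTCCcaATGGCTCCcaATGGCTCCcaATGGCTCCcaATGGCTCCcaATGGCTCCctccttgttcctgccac
Chromosome 5, chr5:120368946-120369046: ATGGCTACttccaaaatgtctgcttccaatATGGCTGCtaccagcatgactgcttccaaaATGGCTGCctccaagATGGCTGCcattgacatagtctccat
The site on chromosome 14 (chr14:25037615-25037787, fold enrichment 8.06) has 8 motifs in a simple repeat with a step of 10 bases, and the site on chromosome 5 (chr5:120368943-120369064, 7.23) has 4. A tandem of 5 motifs in an intron of Ndufaf2 (chr13:108113019-108113173) has a fold enrichment of 2.74, the lowest of these 3 sites.

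The sites were not spread evenly over the chromosomes. Chromosome 12 has 3289 of them, 27.4 per Mb and 55.8% (54.6% to 57.1%) of its REX1 peaks, and the X chromosome 926, 5.41 per Mb and 29.1% (27.5% to 30.7%). The X chromosome also has the lowest density of REX1 peaks, 18.6 per Mb, and 27.4% of its sites have summit bases that recur in the genome, against 5.20% to 15.3% on the other chromosomes. On the other chromosomes the density is 9.12 to 23.6 per Mb and the share 34.8% to 43.1%. On chromosome 12 the RNF12 WT list has 19.1 peaks per Mb, against 25.9 to 65.6 on chromosomes other than 10, 12 and X. The RNF12 H569A,C572A list has 35.8 there and the REX1 list 49.05 per Mb. Both are within their ranges on chromosomes other than 12 and X (28.6 to 50.7 and 24.5 to 58.2). Chromosomes 10 and X also have few RNF12 WT peaks, 23.5 and 19.3 per Mb, and REX1-only distal sites are 42.8% and 29.1% of their REX1 peaks. The share depends on the RNF12 lists through the rule, and the part of RNF12 peak density in it was not tested. The motif share of the sites is 9.09% to 12.96% on each of the 20 chromosomes.

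**Figure D5:**
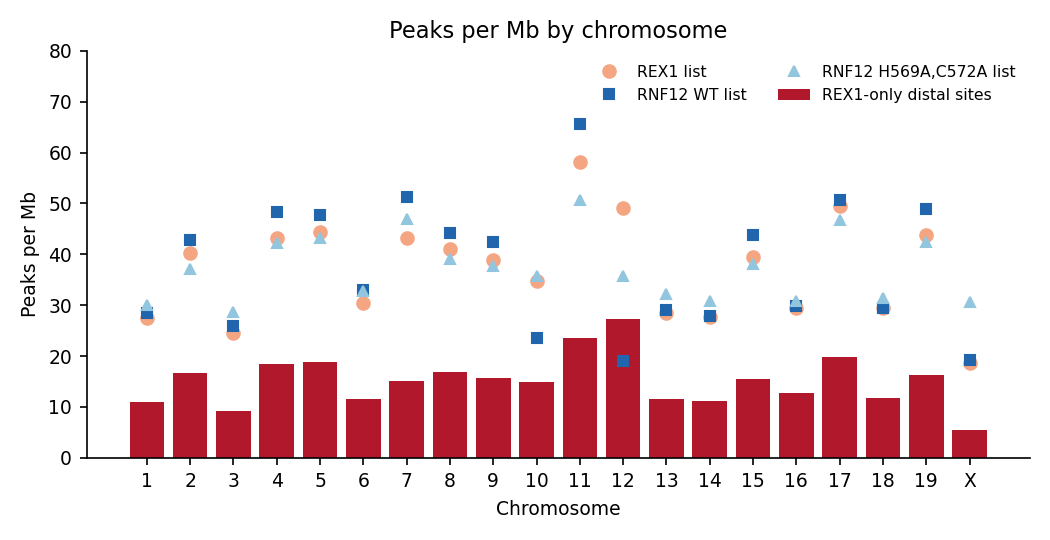
Peaks per Mb (vertical axis) by chromosome (horizontal axis) for REX1-only distal sites (bars) and for each whole list (symbols), 1 library each. Chromosome 12 has the most REX1-only distal sites, 27.4 per Mb, and the fewest RNF12 WT peaks, 19.1 per Mb.

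Within genes, 20285 of the sites lie in the body of a protein-coding gene, and 34.9% of 21728 protein-coding genes hold at least 1, or 53.5% when 10 kb to either side is included. Genes that hold a site are longer, with a median of 41.2 kb against 10.5 kb. The density over all protein-coding bodies is 19.6 sites per Mb. By count, the leading entries are Gm20388 (329 sites), an annotated locus of 4435 kb that spans other genes, and Gse1 (71 sites in 353 kb), which lies within it. Fgfr2, a receptor of the FGF pathway annotated over 2961 kb, follows with 62, which is 2.09 per 100 kb and near the density of all bodies, and Camta1, a transcription activator, with 47. Asap2 and Atxn7l1, both on chromosome 12, have 35 and 32, the cadherin gene Cdh4 and the kainate receptor gene Grik3 34 each, Agap1 33 and Gm37240 31, as does Rnf220. Of the 39116 sites, 21659 (55.4%) have no other within 5 kb, and 23 runs hold 10 or more. Of the 10 runs with most sites 7 are on chromosome 12, led by 18 sites over 38.4 kb of Esrrb (summits from chr12:86463289-86501702, fold enrichments 2.74 to 7.96), the gene of a nuclear receptor of naive pluripotency. The remaining runs are in Tmem51 on chromosome 4 (15 sites), around Ubald2 and Qrich2 on chromosome 11 (13) and in Firre on the X chromosome (14).

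Firre is an X-linked long noncoding RNA gene with repeated stretches in its transcript and is known for its role in nuclear organisation. Over the 79.6 kb of the gene (chrX:50555744-50635321, minus strand) the REX1 list has 28 peaks, of which 22 are REX1-only distal sites. Their fold enrichments range from 3.82 to 20.6 with a median of 6.45, against a median of 4.47 over all sites, and 7 of the 22 hold the REX1 motif. The highest lies at chrX:50566405-50566702 (20.6), 28108 bp from the nearest RNF12 peak. The sequences recur within the gene, as shown for 4 of the sites, in which capitals mark a 12-base word shared by several of them.
Firre site of fold enrichment 20.6, chrX:50566514-50566614: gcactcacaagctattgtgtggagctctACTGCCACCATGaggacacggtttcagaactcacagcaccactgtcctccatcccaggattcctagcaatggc
Firre site of fold enrichment 13.2, chrX:50605155-50605255: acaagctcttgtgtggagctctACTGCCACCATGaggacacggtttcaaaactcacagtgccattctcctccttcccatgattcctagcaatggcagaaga
Firre site of fold enrichment 9.29, chrX:50580342-50580442: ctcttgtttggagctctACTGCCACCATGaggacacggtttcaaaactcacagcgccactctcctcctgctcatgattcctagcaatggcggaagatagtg
Firre site of fold enrichment 12.6, chrX:50617190-50617290: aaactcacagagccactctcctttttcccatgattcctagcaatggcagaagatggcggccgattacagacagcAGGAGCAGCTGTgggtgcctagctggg
The first word, ACTGCCACCATG or its reverse complement, is in the windows of 7 sites and occurs 11 times in the gene, and the second, AGGAGCAGCTGT, is in 4 further windows and occurs 12 times. Over the whole lists, the first word is at 14 summits of REX1 and 4 of each RNF12 list, and the second at 11 of REX1, 15 of the WT ligase and 9 of the mutant. In the fourth line, the second word is preceded by atggcggc, a form of the REX1 motif. These words and this gene were singled out after their values were seen, and sites with a common sequence are not independent of each other.

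At the X inactivation centre, 7 of 10 matched genes have a site in the body or within 10 kb and 4 of 10 in the body, beside 53.5% and 34.9% of all protein-coding genes, 19 sites in all, with a median fold enrichment of 4.88. Tsix, the antisense repressor of Xist, holds 11 of them. The highest (chrX:103451296-103451427, fold enrichment 9.08, −log10 q 24.5) lies in the Tsix body 3636 bp from a Tsix TSS and 1743 bp from an RNF12 peak, and has ATGGCTGC on the plus strand at 103451366 to 103451373.
Tsix, chrX:103451308-103451408: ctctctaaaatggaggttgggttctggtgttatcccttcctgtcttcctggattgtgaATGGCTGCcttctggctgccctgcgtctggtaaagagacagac
The other 10 have fold enrichments of 2.21 to 5.86, and 1 of them (chrX:103439442-103439643, 4.96) holds the motif. Of the 11, 7 lie within 10 kb of Xist, the RNA that coats the inactive X, and none is in the Xist body. Jpx, a noncoding activator of Xist, has 2 sites (5.13 at chrX:103555503-103555885 and 4.70), which are also the sites within 10 kb of Ftx. At Rlim itself, 1 site lies in an intron 1034 bp from the TSS (chrX:103980172-103980290, 5.85) and 2 lie upstream (4.87 and 3.31). Nap1l2 has 1 (4.74), and Cdx4, Chic1 and Zcchc13 have none.

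Among genes of naive pluripotency, 9 of 26 hold a site in the body and 21 of 26 have one within 10 kb, against 34.9% and 53.5% of all protein-coding genes. Genes differ in length and share chromosomes, and the difference of a list from all genes was not tested, so these counts are descriptions. The 84 sites have a median fold enrichment of 4.66, and 9 hold the motif. Pou5f1, which encodes OCT4, has the highest (chr17:35502859-35503045, 15.0, 3070 bp from the TSS, no motif) and 4 sites in all. Prdm14 follows with 8.37 (chr1:13133661-13133840, with the motif), then Esrrb with 8.02, Nanog with 7.49 (chr6:122702627-122702976), Gbx2 with 7.23, Lin28a with 6.82, Tbx3 with 6.71 and Dppa3 with 6.51 (with the motif). Zfp42, the gene of REX1, has none. Esrrb alone has 26 of the 42 sites in bodies: the list has 63.1 sites per Mb of gene body, and 32.1 without chromosome 12.
Of DNA methylation genes, 11 of 16 held a site, with 65.6 sites per Mb, or 37.0 without chromosome 12, where Dnmt3a, a de novo methyltransferase, has 28. All protein-coding bodies have 18.9 per Mb without chromosome 12. The highest fold enrichment of this list is at Tet2 (chr3:133517448-133517720, 13.1), an enzyme of DNA demethylation. FGF signalling and primed-state genes had a site in 12 of 23 bodies, at 27.2 per Mb, or 55.0 per Mb without Fgfr2, which holds most of the length of the list and 62 of its 99 sites in bodies. No other list was counted without its longest gene, so 55.0 per Mb has no like value in them. The highest value of the FGF list was in Fgfr2 (chr7:132896556-132896779, 21.7, with ATGGCTGC, 7997 bp from a TSS of 1500002F19Rik), and Lef1 has one of 14.1. TGF-beta, Nodal and SMAD genes had one in 15 of 31 (36.6 per Mb), led by a site near Tgfb1 (chr7:25705845-25706176, 11.1), and Polycomb genes in 17 of 34 (34.4 per Mb). Imprinted genes had one in 29 of 52 (21.7 per Mb), with the highest at Gab1 (chr8:80859499-80859725, 11.9, with ATGGCTCC), and clustered protocadherin genes in 12 of 15, where overlapping genes share 13 sites with fold enrichments up to 6.46 (chr18:37840712-37840907). Neural developmental genes had one in 18 of 28 bodies but the lowest density, 9.65 per Mb, with the highest near the proneural gene Neurog2 (chr3:127628895-127629058, 10.9, with ATGGCGGC). In the YY1 family, Yy1 has 1 site of fold enrichment 3.52 in an exon (chr12:108819549-108819679). Median fold enrichments in these lists are 4.19 to 4.88 where there is more than 1 site, beside 4.47 over all sites.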

How the data were processed

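The authors trimmed reads with Trim Galore 0.6.7, aligned them with Bowtie2 2.5.0 to mm10 masked at strain differences, used SNPsplit and SAMtools 1.10, merged alleles and called narrow peaks with MACS2 2.2.7.1. The deposited values are fold enrichment, a ratio of signal to control, and −log10 p and q, of which −log10 p was not used. Read totals were not used here, so the depth is unknown, and fold enrichments were not compared between lists. The control used for each list is not given in the sources used here.

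Gene models and TSSs were from GENCODE M21, sequence from GRCm38.p6 by RefSeq, whose kind of soft-masking is not stated. Overlap was 1 bp or more. Copies of 32-base words were counted on both strands of chromosomes 1 to 19 and X. The CTCF, NRF1 and NF-Y strings are consensus strings named without their letters. Members and lists were chosen with earlier results of these data known. Named sites are the 12 of highest fold enrichment, the highest of each gene list and X inactivation centre gene, and those at the rule's limits. Genes are the 10 with most sites. Some genes of these lists are counted but not reported here by name. Strings at 1% of sites, or with a ratio of 2 to flanks, are named. Other Esrrb, Firre, tandem and repeat values were chosen after they were seen. Python 3.11.15, numpy 2.4.6, pandas 2.3.3, scipy 1.17.1 and matplotlib were used, and overlap, distance, motif and interval steps were tested on simulated data.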

Additional observations from a re-analysis of the deposited data

Results flagged for a closer look

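Chromosome Y and unplaced scaffolds were outside the rule. There, 78 REX1 peaks, 28 on Y and 50 on scaffolds, also lacked an RNF12 peak.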

How the results depend on the processing

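Requiring a −log10 q of at least 5 in all 3 lists left 20751 sites with a motif share of 15.9% and a soft-masked summit share of 18.7%, and requiring it in the REX1 list alone left 18371 sites with a motif share of 16.2%. The motif share was also 11.3% without sites that had an RNF12 peak within 500 bp, 6.83% with 25 bp and 13.9% with 100 bp to each side of the summit, 11.2% in windows with no soft-masked base and 11.1% in single-copy sequence. With summits more than 3 kb from a TSS, 46.6% were in introns and 21.0% of summits were soft-masked, and with protein-coding TSSs alone 19.1% were soft-masked. The difference in motif share from distal sites of all 3 lists, −14.9 points, became 2.44 points with no soft-masked base and 1.24 points in single-copy sequence, and −0.38 points, with 0 in its interval, in single-copy sequence of 50 to 60% G and C. It stayed between −22.1 and −8.88 points under the other 8 settings. The difference from REX1-only promoter sites kept its direction under all 11, at 1.39 to 3.77 points. The single-copy and composition settings were chosen after seeing the data. No paired analysis was possible because each protein has 1 library, and no library could be left out. Depth cannot be judged from peak lists, so a missing RNF12 peak is not absence of RNF12.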
